A study of Rattus norvegicus with 43 samples.

Results

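The urokinase receptor system was examined in 43 DES-treated rat pituitaries through 7 genes: Plaur, Plau, Plat, Serpine2, Serpinb2, Anxa2 and S100a10. They are 7 of the 14217 genes that a probe set of the array named singly, and they were measured by 10 of its 31099 probe sets. The group was chosen by measured values: it was picked because Plaur was higher in the animals in which mitotic genes such as Mki67 and Top2a were higher. That relation is therefore given below as a description without a test. The other 6 genes complete the pathway around Plaur.

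The animals were male F2 rats from a cross of COP females and ACI males whose F1 offspring were intercrossed. Each received a Silastic implant with 5 mg of the synthetic estrogen diethylstilbestrol (DES) at 9 weeks of age, was treated for 12 weeks and was sacrificed at 21 weeks, 4 hours after 50 mg/kg of the thymidine analog BrdU. One anterior pituitary gland per animal was hybridised to 1 array, and no gland without DES was included. The animals had the 22 highest or the 21 lowest pituitary weights of their population, but which animal belonged to which weight class is not labelled, so all 43 form 1 group and the values describe these selected animals.

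Plasmin is the serine protease that digests fibrin and other matrix proteins and releases growth factors bound to them. It is made from plasminogen by urokinase (Plau) or by tissue plasminogen activator (Plat). Urokinase works on the cell surface while bound to its receptor (Plaur), and plasminogen and tissue plasminogen activator are held there by a complex of annexin A2 (Anxa2) and S100a10. The serpins Serpine2 (protease nexin 1) and Serpinb2 (plasminogen activator inhibitor 2) inhibit the activators. In the pituitary, estrogens drive lactotroph proliferation, and the gland also holds other hormone cells, folliculostellate cells, vessels and macrophages.

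Animal 43 had an array unlike the rest: its correlation with the remaining arrays averaged 0.927, against 0.967 to 0.976 elsewhere, and its actin 3' to 5' difference was 1.97 on the log2 scale, against 1.26 to 1.67. Animal 38 exhibited the lowest proliferation of all. In addition, Plaur and many other genes were shifted between animals 1 to 22 and animals 23 to 43. This break was found in the data and no label explains it. The blocks hold 22 and 21 animals, as many as the highest and lowest weight classes, but no label ties a class to an animal number, so a batch and the weight class cannot be told apart, and a call lost with the break in the model may be lost to either. The break was entered in the model as an alternative, and the main relations are also given within the 2 blocks. The lactotroph hormone Prl, which marks the labelled gland, averaged 15.61 ± 0.14 on the log2 scale (SD, n = 43). Values are probe set intensities as scaled by the authors, and log2 levels are log2(intensity + 16), on which the change of dim genes is understated. Brightness is not calibrated between probe sets, so levels are compared between animals and not between genes. In these whole glands, fewer cells of a type and less RNA per cell cannot be told apart.

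The upstream sequence of Plaur is shown first because the AP-1 and ERK response genes are among those compared with Plaur below. Of the 7 genes, 5 have a promoter in the RefSeq table of build GRCr8, and the 250 bases before the start site were searched on both strands for the AP-1 motif TGANTCA and the cell cycle motif CHR (TTTGAA). Capitals mark an AP-1 match. The urokinase receptor and annexin A2 hold 1 match each, while the ligand urokinase holds none.
Plaur, chr1:89181113-89181362, + strand: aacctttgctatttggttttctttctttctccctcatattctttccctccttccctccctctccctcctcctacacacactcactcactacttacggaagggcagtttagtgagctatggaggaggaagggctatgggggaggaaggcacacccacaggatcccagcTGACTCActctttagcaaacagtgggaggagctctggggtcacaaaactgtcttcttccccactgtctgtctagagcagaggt
Anxa2, chr8:78986002-78986251, + strand: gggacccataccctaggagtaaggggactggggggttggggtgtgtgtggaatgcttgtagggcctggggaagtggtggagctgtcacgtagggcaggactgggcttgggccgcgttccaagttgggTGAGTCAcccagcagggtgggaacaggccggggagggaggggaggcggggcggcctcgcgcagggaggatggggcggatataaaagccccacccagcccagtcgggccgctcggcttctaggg
Plau, chr15:3511988-3512237, - strand: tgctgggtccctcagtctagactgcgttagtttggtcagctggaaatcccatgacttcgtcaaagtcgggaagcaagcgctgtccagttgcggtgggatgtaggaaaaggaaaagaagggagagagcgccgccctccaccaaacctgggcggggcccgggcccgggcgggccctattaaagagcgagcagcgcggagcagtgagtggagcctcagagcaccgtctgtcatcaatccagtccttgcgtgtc

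The match begins 83 bases before the start site in Plaur and 123 bases before it in Anxa2. Serpinb2 holds 1 match as well, 189 bases before its start, and Serpine2 holds none. Of 27457 promoters of the same length, 6.36% hold this motif. The CHR motif occurs in 16% of them and in none of the 5 promoters searched. These matches are letters in a window, and no binding was measured. The 7 genes lie on 7 different chromosomes: Plaur on 1, S100a10 on 2, Anxa2 on 8, Serpine2 on 9, Serpinb2 on 13, Plau on 15 and Plat on 16.

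Of the 7 genes, 5 passed the filter on low values (mean log2 above 7.16, the median of all probe sets): Plaur, Plat, Serpine2, Anxa2 and S100a10. The probe set of Plaur (1387269_s_at), the receptor, exhibited intensities of 175.5 at the lowest, 564.5 at the median and 970.5 at the highest. Its log2 level averaged 9.21 ± 0.45 (SD, n = 43), and this SD exceeded those of 98.5% of the 200 probe sets nearest in level. The lowest values belonged to animals 38 (175.5) and 43 (274.7), and the next lowest to animal 39 (394.1).

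Tissue plasminogen activator, Plat (1367800_at), varied less, with 335.1 in animal 3, a median of 699.3 and 971.6 in animal 11. Its log2 level averaged 9.43 ± 0.35 (SD, n = 43), an SD at the 93rd percentile of probe sets of like level. The lowest values came from animals 3, 8 and 2, all of the first block.

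Serpine2 (1372440_at), which inhibits urokinase, tissue plasminogen activator and thrombin, was close to the filter. It read 27.3 in animal 6, 146 at the median and 288.4 in animal 38, with a log2 level of 7.30 ± 0.50 (SD, n = 43). Thus the animal with the least Plaur had the most Serpine2. The SD of Serpine2 lay at the 89th percentile of probe sets of like level.

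Anxa2 (1367584_at) read 2217.1 in animal 22, 3208.1 at the median and 4299 in animal 43. Its log2 level was 11.60 ± 0.23 (SD, n = 43), an SD at the 80th percentile among probe sets of similar level. Its partner S100a10 (1386890_at) ranged between 3945.6 in animal 2 and 14116.3 in animal 43, around a median of 5166.4, with a log2 level of 12.38 ± 0.29 (SD, n = 43). Animal 43 lay far above the rest, since the next highest, animal 40, read 7608.3. By the Bayesian information criterion animal 43 formed a cluster of its own, and the relations of S100a10 are therefore given for the other 42 animals.

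Urokinase itself did not pass the filter. Plau (1387675_at) ranged from 23 in animal 42 through a median of 118.1 to 313.6 in animal 31, with a log2 level of 7.00 ± 0.60 (SD, n = 43). Serpinb2 (1368487_at) was dimmer still, with 0.6 in animal 16, a median of 10 and 35.4 in animal 36. At such intensities small differences carry no order between animals. The 3 other probe sets of these genes were also dim, with medians of 21.7 for Plaur, 41.6 for Plau and 33.1 for Anxa2, and they did not follow the bright ones (r = -0.149, 0.354 and -0.138 across animals).

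**Figure D1:**
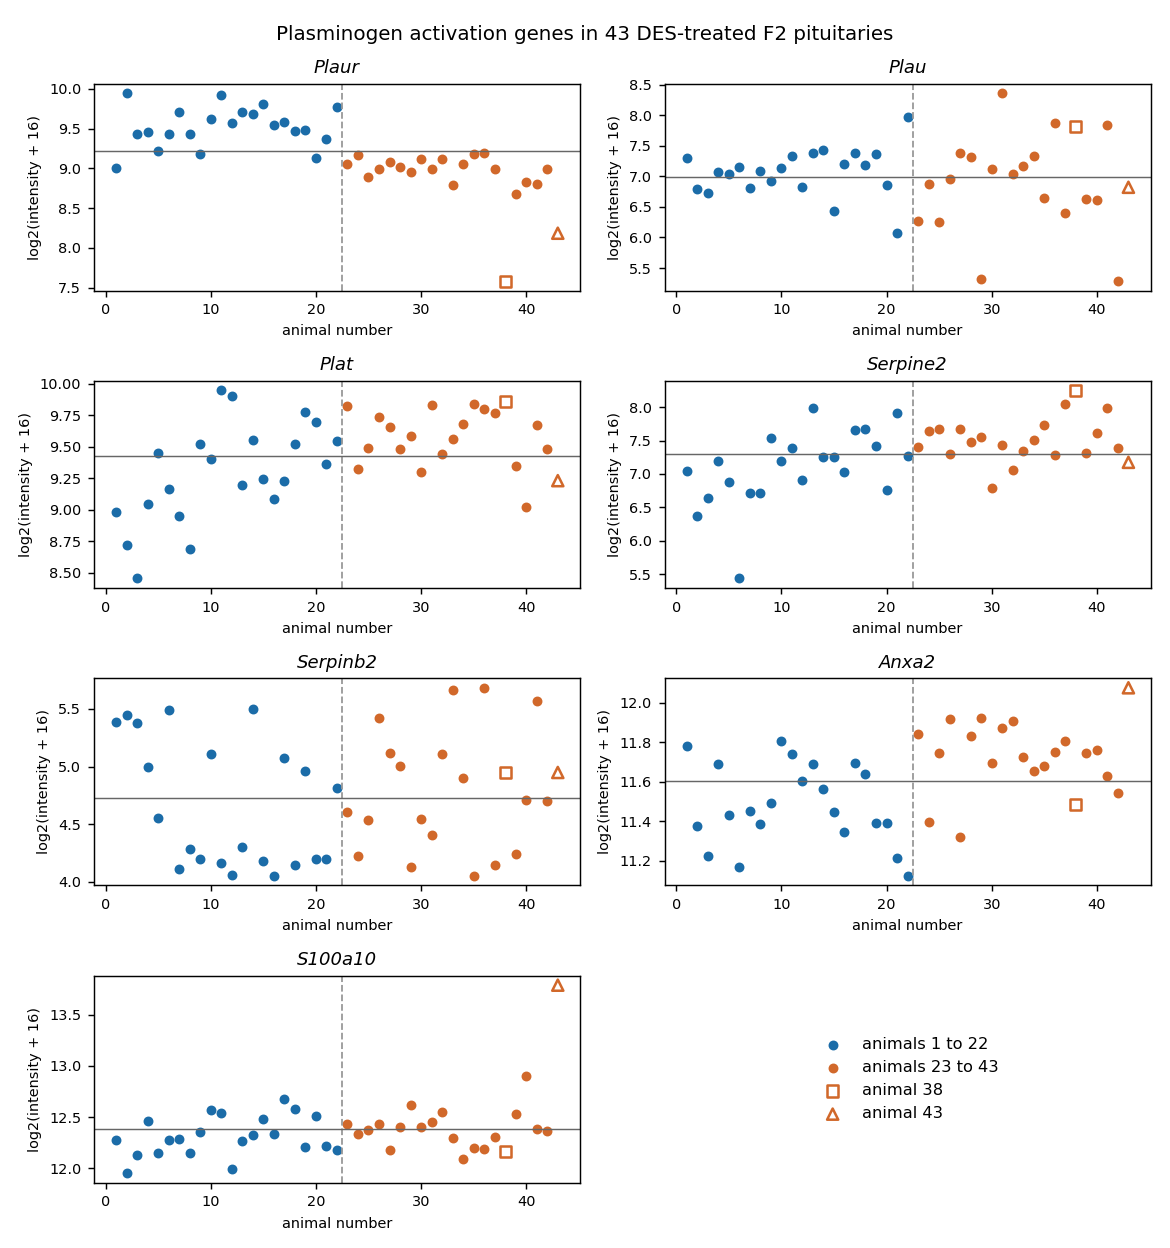
Level of each gene (log2 of intensity + 16, y axis) against the animal number in the labels (x axis), 1 point per animal, with a line at the mean of all 43 animals and a dashed line between animals 22 and 23. Plaur sits higher in most of animals 1 to 22, animals 38 and 43 have the lowest Plaur, and animal 43 alone has very high S100a10.

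The receptor was the gene most tied to the break in the animal numbers. Plaur averaged 9.52 ± 0.25 (SD, n = 22) on the log2 scale in animals 1 to 22 and 8.89 ± 0.37 (SD, n = 21) in animals 23 to 43. Of animals 1 to 22, 19 lay above the highest of animals 23 to 43. The break took 51.3% of the variance of Plaur, against 29.5% for Anxa2, 16.7% for Serpine2, 16.0% for Plat, 5.4% for S100a10 and 1.5% each for Plau and Serpinb2. Anxa2 ran the other way, with 11.48 ± 0.20 (SD, n = 22) and 11.73 ± 0.18 (SD, n = 21).

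The relation that picked Plaur is described next, without a test. Mki67, the proliferation antigen, correlated with Plaur at r = 0.661 and rho = 0.449 over 43 animals, and Top2a, the mitotic topoisomerase, at r = 0.487 and rho = 0.345. The mean of 35 proliferation genes gave r = 0.717 and rho = 0.506. Animal 38 carried much of this, since its score of -0.83 was far below the next lowest of -0.31, and its Mki67 level of 7.34 was below the next lowest of 8.40. Without animals 38 and 43, r was 0.481 for the score, 0.461 for Mki67 and 0.294 for Top2a (n = 41).

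In the second block the direction depended on animals 38 and 43. In animals 1 to 22, r with Plaur was 0.434 for the score, 0.394 for Mki67 and 0.445 for Top2a. In all of animals 23 to 43 the same values were 0.764, 0.568 and 0.397, with rho of -0.084, -0.214 and -0.068. Among the 19 animals from 23 to 42 without animal 38, r was -0.427, -0.414 and -0.518. The difference between the blocks was not tested. Thus r was positive over all animals and in each whole block, and negative in the second block once animals 38 and 43 were left out.

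The r of 5 other genes with the score over all 43 animals lay between -0.325 for Serpine2 and -0.021 for Plau, and that of S100a10 was 0.187 in the 42 animals without animal 43. The ligand gene Plau, which did not pass the filter, had r = 0.515 with the score in animals 1 to 22 (rho = 0.248). In the 19 animals of the second block its r was -0.259 (rho = -0.319). The 35 proliferation genes had a median r of 0.413 with Plaur. This median used the relation that picked Plaur and shows nothing further about it. Among them, Nusap1 (r = 0.74), Kif20a (r = 0.72) and Cdk1 (r = 0.67), which act in mitosis, had a positive r. The replication clamp Pcna had a negative r (-0.52).

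**Figure D2:**
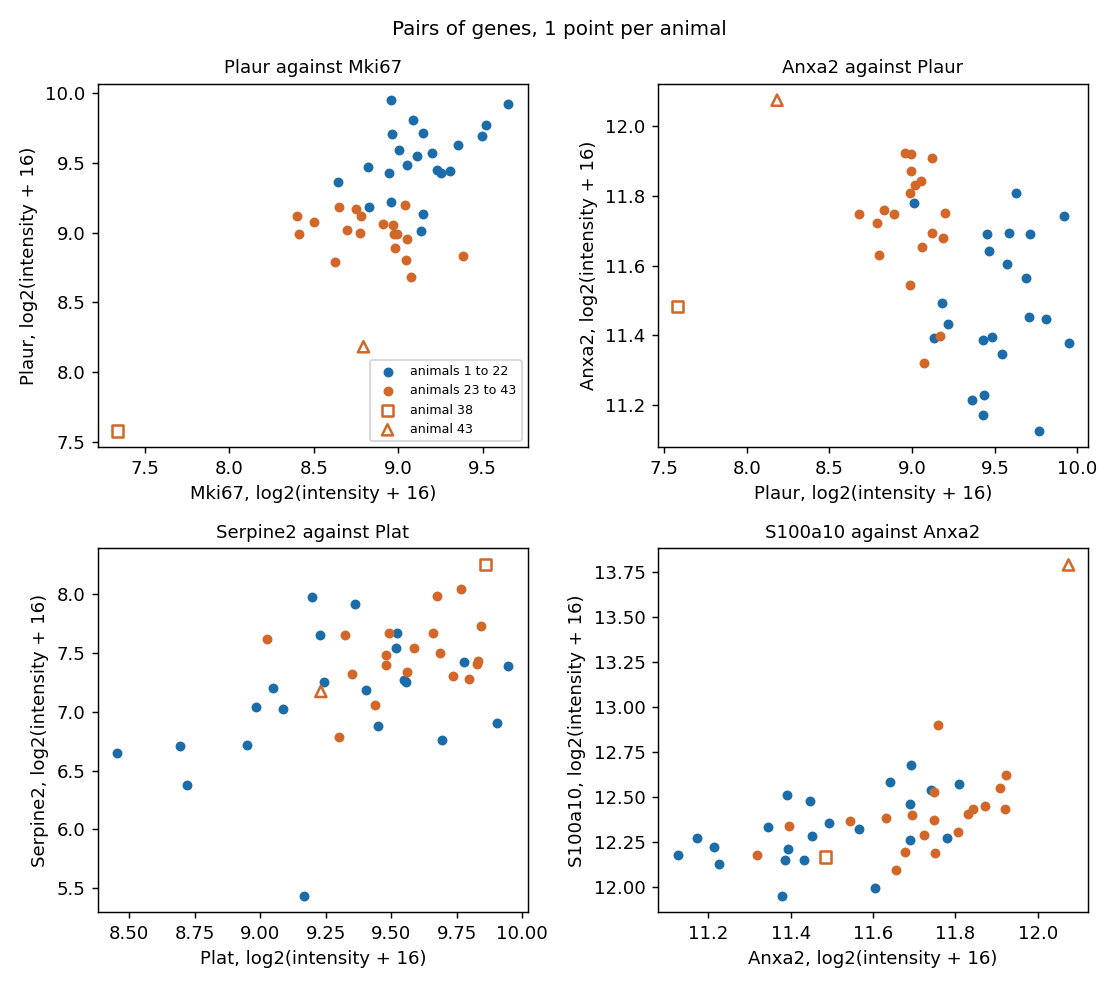
Pairs of genes with 1 point per animal, both axes as log2 of intensity + 16: Plaur against Mki67, Anxa2 against Plaur, Serpine2 against Plat, and S100a10 against Anxa2. Animals 38 and 43 lie apart in the first panel, the blocks lie apart in the second, and the pair of Anxa2 and S100a10 rises within both blocks.

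To see which genes varied with each of the 5 genes that passed, every other probe set that passed was regressed on it with limma, with Benjamini-Hochberg adjustment over 15520 probe sets and a threshold of 0.05. The question for the pathway was whether its own genes varied together. In the regression on Plaur, 31.4% of all probe sets were called, 16% higher and 15.4% lower. Of the other 4 genes tested, 0 were higher and 2 were lower with Plaur, and both of these calls were tied to the blocks or to single animals.

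Anxa2 was lower where Plaur was higher (r = -0.382, permutation P = 0.0114; rho = -0.482, permutation P = 0.00121; n = 43; slope -0.19 ± 0.07 SE, limma adjusted P = 0.0375). With the 2 animals of most extreme Plaur left out, r was -0.448 (P = 0.0036 by permutation). Within blocks r was 0.035 in animals 1 to 22 and -0.004 in animals 23 to 43, and with the break in the model the limma adjusted P was 0.973. The relation therefore did not hold within either block. Without animal 43 alone, the limma adjusted P was 0.144, and over 15 alternatives it ran from 0.0022 to 0.977, with 7 past the threshold.

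Serpine2 was also lower with Plaur (r = -0.373, permutation P = 0.0170; rho = -0.365, permutation P = 0.0175; n = 43; slope -0.42 ± 0.16 SE, limma adjusted P = 0.0357). Without the 2 farthest animals r was -0.310 (permutation P = 0.0472). It was 0.063 in animals 1 to 22 and -0.376 in animals 23 to 43, and the limma adjusted P was 0.653 with the break in the model. Without animal 38, lowest for Plaur and highest for Serpine2, the slope was -0.34 and the limma adjusted P 0.164. The call was also lost without animals 38 and 43 (0.122), with no filter (0.0728), with array medians subtracted (0.0546), with both Plaur probe sets averaged (0.853), and with the trend over animal number (0.459) or the proliferation score (0.297) in the model, and 5 of 14 alternatives were past the threshold, over a range of 0.0245 to 0.993. Plat was not called with Plaur (r = -0.271, permutation P = 0.0784; limma adjusted P = 0.154), nor was S100a10 in the 42 animals without animal 43 (r = -0.104, permutation P = 0.507; limma adjusted P = 0.682). With animal 43 kept and animal 38 left out, S100a10 was lower with Plaur (limma adjusted P = 0.00373), and over 15 alternatives the highest was 0.998.

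The genes of the 2 partners in the surface complex varied together. S100a10 was higher where Anxa2 was higher in the 42 animals without animal 43 (r = 0.511, permutation P = 0.00053; rho = 0.577, permutation P = 7e-05; slope 0.44 ± 0.12 SE, limma adjusted P = 0.0171). In the regression on Anxa2 without animal 43, 7.33% of all probe sets were called. Within blocks, r was 0.503 in animals 1 to 22 (permutation P = 0.0177) and 0.452 in the 19 animals from 23 to 42 without animal 38 (permutation P = 0.0548; rho = 0.670, permutation P = 0.00233). Dropping the 2 farthest of the 42 animals left r at 0.506 (permutation P = 0.00102). With the break in the model and without animals 38 and 43, the limma adjusted P was 0.0995, and with the bright and dim probe sets of Anxa2 averaged it was 0.999. The other 13 of 15 alternatives were past the threshold, but most of them kept animal 43, highest for both genes. The lowest, 0.000239 with the actin difference in the model, was over all 43 animals, as was 0.0274 with the break alone. Without animals 38 and 43 the limma adjusted P was 0.0174.

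Plat and its inhibitor Serpine2 were also higher together (r = 0.479, permutation P = 0.00152; rho = 0.447, permutation P = 0.0029; n = 43; slope 0.69 ± 0.19 SE, limma adjusted P = 0.0205). In the regression on Plat, 5.7% of all probe sets were called, 3.96% higher and 1.74% lower. Without the 2 farthest animals r was 0.408 (permutation P = 0.00744), and within blocks it was 0.368 in animals 1 to 22 (permutation P = 0.0920), 0.407 in animals 23 to 43 (permutation P = 0.0661) and 0.259 in the 19 animals from 23 to 42 without animal 38 (permutation P = 0.284). The call was lost with the break (limma adjusted P = 0.115, and 0.171 also without animals 38 and 43) or a trend over animal number (0.681) in the model and after quantile normalization (0.0516), and 9 of 13 alternatives were past the threshold, the lowest at 0.0181.

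The permutation P values above and below were not adjusted over pairs or sets of animals. In all, 10 pairs were compared, and 4 were called over 43 animals. Beyond those given, Plat and Anxa2 had r = 0.306 (permutation P = 0.0471; limma adjusted P = 0.233) and Serpine2 and Anxa2 r = 0.319 (permutation P = 0.0359), and neither was called. Plat and S100a10 were unrelated over 42 animals (r = 0.048, permutation P = 0.761), but r was 0.277 in animals 1 to 22 and -0.622 in the 19 animals from 23 to 42 without animal 38 (permutation P = 0.00495; rho = -0.353, permutation P = 0.140). Serpine2 and S100a10 gave r = 0.216 over 42 animals (permutation P = 0.169). For the dim genes only descriptions are possible: Plau correlated with Plaur at r = 0.033 and rho = 0.183, and with Serpinb2 at r = 0.372 and rho = 0.426.

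The genes most like Plaur over 43 animals were, by Pearson r, Aldh1l2 (0.89), a mitochondrial enzyme of folate metabolism, Rell2 (0.87), Hapln4 (0.86), a hyaluronan link protein, Clptm1l (0.85), Slc50a1 (0.84), a sugar transporter, and C2cd4a (0.84). Next came Nppc (0.84), the precursor of C-type natriuretic peptide, Fkbp10 (0.83), a collagen chaperone, Bag1 (0.82), Hapln3 (0.81), Matn2 (0.81), a matrix protein, and Htr5b (0.81). The most opposite were Gyg1 (-0.82), which primes glycogen synthesis, Fsd1l (-0.82), Cmbl (-0.81), Arl6 (-0.81), Cdo1 (-0.81), a cysteine dioxygenase, Lims1 (-0.80), Arrdc3 (-0.80) and Tspan6 (-0.80).

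All 20 were chosen for these values, so they are a description. They held a positive or negative r of the same sign in animals 1 to 22, where Aldh1l2 had r = 0.70 and Matn2 r = 0.51. Among the 19 animals from 23 to 42 without animal 38, Matn2 had r = 0.57, Hapln3 0.51 and Nppc 0.50, while Aldh1l2 had r = -0.19. In the regression on Plaur 4878 probe sets were called over 43 animals and 953 with the break in the model, or 6.14%. With the break in the model and without animals 38 and 43, 1 was called higher and 0 lower (1328 at an unadjusted P under 0.05).

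Plat varied with the genes of folliculostellate and stem cells, the non-hormone cells of the gland. Of 6 such genes tested, 5 were higher and 0 lower with Plat, with a median r of 0.659, against 3.96% of all probe sets called higher and a median r over them of 0.03. They were S100b, a calcium-binding marker of folliculostellate cells (r = 0.71, rho = 0.65; slope 0.74 ± 0.11 SE, limma adjusted P = 1.91e-05), Aldh1a1, a retinoic acid-making enzyme (r = 0.69, rho = 0.64), Vim, an intermediate filament (r = 0.67, rho = 0.64), Sox2, the stem cell factor (r = 0.65, rho = 0.65), and Slc1a3, a glutamate transporter (r = 0.45, rho = 0.42). Cd24 had r = -0.34 and was not called.

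These relations did not depend on the blocks to the same degree as those of Plaur. With the break in the model 4 of the 6 were called, all but Slc1a3 among the 5, against 4.05% of all probe sets. In animals 1 to 22 and in the 19 animals from 23 to 42 without animal 38, r was 0.78 and 0.45 for S100b, 0.69 and 0.52 for Aldh1a1, 0.75 and 0.30 for Vim, and 0.59 and 0.47 for Sox2. Of the animals left out of the second values, animal 38 was high in Plat (9.86) and in S100b (10.28). Animal 43 had low Plat (9.23) but high S100b (10.24). Animals 3, 8 and 2, the lowest for Plat, were also among the lowest for S100b. Without animal 43 the same number, 5, was called. With a trend over animal number in the model, 170 probe sets were called with Plat, against 885, and these genes were not examined in that fit.

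**Figure D3:**
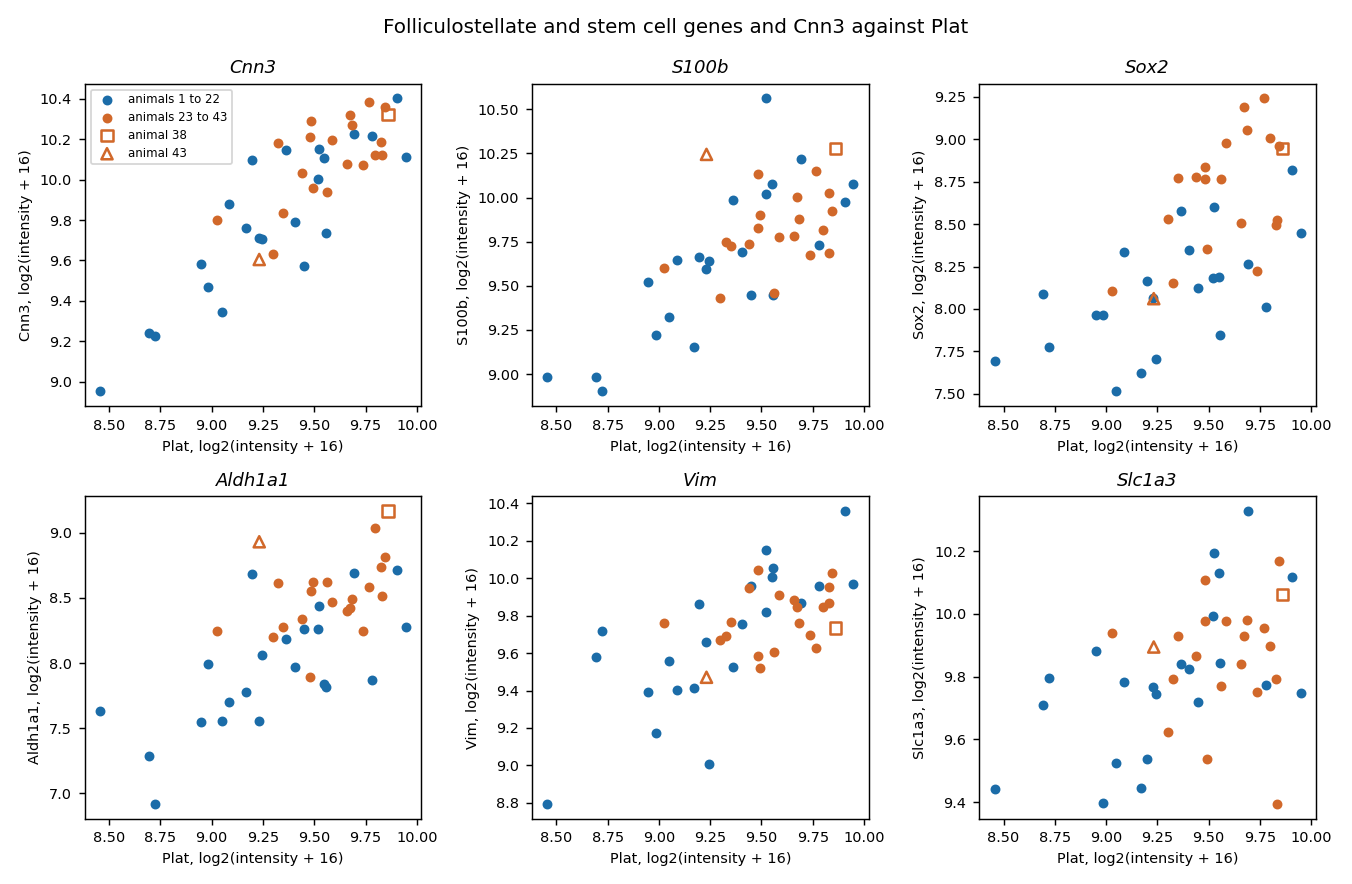
Levels of Cnn3, the gene most like Plat, and of 5 folliculostellate and stem cell genes (y axes) against Plat (x axes), all as log2 of intensity + 16, with 1 point per animal. Points rise to the right in each panel, most tightly for Cnn3, and animals 1 to 22 extend to the lowest Plat levels.

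The gene most like Plat was Cnn3, an actin-binding calponin (r = 0.86, and 0.87 in animals 1 to 22 and 0.65 in the 19 animals from 23 to 42 without animal 38), followed by Capn6 (0.80), Drc12 (0.79), Gstm1 (0.79), a glutathione transferase, and Rbpms (0.78). Drc12 was an exception in the second block, with r = 0.16 in animals 23 to 43 against 0.91 in animals 1 to 22. The most opposite were Pet100 (-0.68), Hilpda (-0.66) and Pafah1b3 (-0.65).

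The other cell type lists are read against the 3.96% of all probe sets called higher with Plat and the 1.74% called lower. With the break in the model 4.05% were called. Other cell type genes were higher with Plat, among them all 5 gonadotroph genes tested and 2 of 4 somatotroph genes. Of these, Gnrhr, the receptor for gonadotropin-releasing hormone, was still called with the break in the model (r = 0.64 over all animals; 0.61 in animals 1 to 22 and 0.50 in the 19 animals of the second block). Dcn, a matrix proteoglycan of fibroblasts, had r = 0.64 with Plat, and Tek, the endothelial angiopoietin receptor, r = 0.58, but in animals 23 to 43 these were 0.18 and -0.05, and 0.39 and 0.15 in the 19 animals of the second block. Dcn was the 1 gene of 4 fibroblast genes called higher, and Tek and Plvap were the 2 of 7 endothelial genes. Other genes of these lists were not called, with Col3a1 (r = -0.14), Col6a1 (r = -0.12), Col1a2 (r = 0.04) and Egfl7 (r = -0.32). Of 14 macrophage and leukocyte genes, Csf1r was higher and Mrc1 (r = -0.52) lower with Plat, and the platelet gene Pf4 was lower (r = -0.52), and none of these 3 was called with the break in the model. The summed intensity of 7 folliculostellate genes ran from 9442.4 to 15000.3 among the animals. These were the 6 tested and Aqp4, which did not pass the filter. That of the 5 gonadotroph genes ran from 17522 to 55827.6. How far the amount of these cells accounts for the levels of Plat was not tested.

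Serpine2 shared part of this pattern. Of the 6 folliculostellate genes 3 were higher with Serpine2 and 0 lower, against 0.606% of all probe sets called higher (0.155% lower, 0.76% in all): S100b (r = 0.61, rho = 0.55; limma adjusted P = 0.00821), Sox2 (r = 0.54) and Aldh1a1 (r = 0.53). S100b kept r = 0.57 in animals 1 to 22 and 0.61 in the 19 animals of the second block, but none of the 3 was called with the break in the model, where limma called 0 of all probe sets (1163 at an unadjusted P under 0.05). The genes most like Serpine2 were Fmo1 (0.67), Emp1 (0.66), Smad2 (0.65), which carries TGF-beta signals, Ildr1 (0.64) and Rcan2 (0.64), and the most opposite were Ncoa7 (-0.65), Stac2 (-0.64) and Nkain1 (-0.58). These genes were not called with the break in the model either.

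Anxa2 was closest to Serpinb1a (0.82), an inhibitor of neutrophil proteases, Pdlim3 (0.81), S100g (0.80), an estrogen-regulated calcium-binding protein, Pon3 (0.79) and Klk1 (0.73), the tissue kallikrein. The most opposite were Twsg1 (-0.75), Trio (-0.74) and Drd2 (-0.73), the dopamine receptor through which dopamine restrains lactotrophs. These patterns stayed within blocks: r in animals 1 to 22 and in the 19 animals of the second block was 0.66 and 0.82 for Serpinb1a, 0.70 and 0.85 for Pdlim3, and -0.47 and -0.72 for Drd2. All 8 were called with the break in the model.

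In the regression on Anxa2, 15.8% of probe sets were called over 43 animals, 7.34% higher and 8.45% lower, and 1.91% were called with the break in the model. Among cell type lists, all 5 gonadotroph genes and 2 of 4 somatotroph genes were higher with Anxa2, and with the break in the model 0 of either was called. Nefl, a neurofilament, was higher (r = 0.73) and Mbp, a myelin protein, lower (r = -0.57), and both calls held with the break in the model. Of 14 macrophage and leukocyte genes 3 were higher with Anxa2 (Csf1r, Tyrobp and Lyz2) and 1 was lower (Mrc1, r = -0.39). Tyrobp, a macrophage signalling adaptor, had r = 0.55 over all animals and 0.19 in the 19 animals of the second block. The posterior lobe hormone genes Avp and Oxt did not pass the filter.

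S100a10 without animal 43 was closest to Atp5mf (0.74), a subunit of ATP synthase, Psma2 (0.72), a proteasome subunit, Hypk (0.72), Pfdn4 (0.71) and Gas5 (0.70), and most opposite to Mbp (-0.68), Trim28 (-0.67) and Madd (-0.67). With all 43 animals 39.7% of probe sets were called with S100a10 (14.8% higher, 24.9% lower), and without animal 43 the share was 4.47%, with 407 higher and 286 lower. The correlation of S100a10 with the actin 3' to 5' difference was 0.618 over 43 animals and 0.233 without animal 43. With the actin difference in the model, 2883 probe sets were called over 43 animals, against 6158 without it. It was not entered without animal 43, so the part of RNA quality in those relations was not tested.

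The rest of the plasmin pathway was taken from lists by role. Plg, plasminogen itself, passed the filter with a median intensity of 143.5, and A2m, the broad protease trap, with 333. Neither was called with any of the 5 genes, and the plasmin inhibitors Serpinf2 and Cpb2 did not pass. Serpini1, neuroserpin, which inhibits tissue plasminogen activator in neurons, was bright (median 6873) and was lower with Plaur (r = -0.56, rho = -0.53; slope -0.38 ± 0.08 SE, limma adjusted P = 0.000697) and higher with S100a10 without animal 43 (r = 0.50, limma adjusted P = 0.0245). With the break in the model the call with Plaur was lost (limma adjusted P = 0.0572). It was higher with Anxa2 over 43 animals (r = 0.42), not without animal 43, and was not called with Plat (r = 0.10).

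Of 7 receptors tested that bind urokinase complexes or clear them, 3 were higher and 1 was lower with Plaur, against 16% and 15.4% of all probe sets. Vldlr, an endocytic receptor for serpin complexes, was the strongest (r = 0.76, rho = 0.64; slope 0.30 ± 0.04 SE, limma adjusted P = 1.62e-06). It was called with the break in the model (limma adjusted P = 0.01), but r was 0.29 in animals 1 to 22 and 0.15 in the 19 animals of the second block. Lrp1, the main clearance receptor, had r = 0.57 and Itgb5, a vitronectin receptor subunit, r = 0.43, while its partner Itgav had r = -0.39, and these 3 calls were lost with the break in the model. Itgb1, Itgb2 and Egfr were not called with Plaur, and none of the 7 was called with Plat or Serpine2. Lrp1 and Itgb5 were lower with Anxa2 over 43 animals, and neither was called without animal 43.

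Among 4 other plasminogen-binding proteins Hmgb1 was lower with Plaur (r = -0.71, limma adjusted P = 1.51e-05), also with the break in the model (limma adjusted P = 0.0482). Of all probe sets 15.4% were called lower with Plaur. With the break and without animals 38 and 43, 0 were called lower. Eno1, Plgrkt and Cdh2 were not called with Plaur. Of the matrix ligands only Vtn and Lama5 passed, and Lama5, a laminin chain, was lower with Plaur (r = -0.49) and higher with Plat (r = 0.44) and Anxa2 (r = 0.38). These calls were lost with the break in the model.

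Of 12 metalloproteinases and inhibitors 5 passed the filter. Mmp12, the macrophage elastase, varied most, between 7.44 and 10.62 on the log2 scale, and was higher with Plaur (r = 0.36), as was Mmp14 (r = 0.39), a membrane-bound protease, while the inhibitor Timp3 was lower (r = -0.36). With the break in the model none of these was called. Timp1 was higher with Plat (r = 0.51, rho = 0.42; slope 0.33 ± 0.09 SE, limma adjusted P = 0.0164), also with the break in the model (limma adjusted P = 0.0233). It had r = 0.75 in animals 1 to 22, -0.12 in animals 23 to 43 and 0.29 in the 19 animals from 23 to 42 without animal 38.

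Most relatives of Anxa2 and S100a10 were lower with Plaur. Of 13 other annexins and S100 proteins tested, 8 were lower and 1 was higher with Plaur, with a median r of -0.408, against 15.4% and 16% of all probe sets and a median r of 0.01. S100a6 (r = -0.74, rho = -0.80; slope -1.39 ± 0.19 SE, limma adjusted P = 5.56e-07) and S100a13 (r = -0.68) were lower, also with the break in the model. The other 6 that were lower, Anxa1, Anxa3, Anxa4, Anxa7, S100a1 and S100b, were not called then, nor was Anxa11 (r = 0.57). In the 19 animals of the second block S100a13 had r = 0.49, the opposite sign, and S100a6 r = -0.60. With the break in the model and without animals 38 and 43, 0 probe sets were called lower with Plaur. Neither of these lower calls therefore remained.

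With Plat, 4 of these 13 were higher and 0 lower: S100b, Anxa1 (r = 0.67), S100a1 (r = 0.60) and S100a11 (r = 0.55), against 3.96% of all probe sets called higher. All but S100a11 were called with the break in the model, but Anxa1 had r = 0.84 in animals 1 to 22, 0.00042 in animals 23 to 43 and 0.38 in the 19 animals of the second block. With Anxa2, 5 were higher and 0 lower: Anxa1 (r = 0.62), S100a11 (r = 0.59), S100a6 (r = 0.47), S100a1 (r = 0.42) and Anxa3 (r = 0.40), against 7.34% of all probe sets called higher. None of the 5 was called with the break in the model. S100a11 had r = 0.50 with Anxa2 in animals 1 to 22 and 0.65 in the 19 animals of the second block.

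The AP-1 and ERK response genes are compared because ERK and AP-1 signalling are known to raise the human receptor gene in cultured cells. Of 17 tested, 5 were higher and 2 lower with Plaur, against 16% and 15.4% of all probe sets. The higher ones were Fos, an AP-1 subunit (r = 0.61, rho = 0.34; slope 0.42 ± 0.08 SE, limma adjusted P = 0.000183), and 4 genes induced by ERK, namely Dusp5 (r = 0.59), Spry1 (r = 0.58), Etv5 (r = 0.50) and Spry4 (r = 0.43), and the lower ones were Ets1 (r = -0.42) and Ets2 (r = -0.48). Only Fos was called with the break in the model, and in the 19 animals of the second block its r was -0.38. Jun, Junb, Jund and Egr1 were not called with Plaur, and none of the 17 was called with Plat or Serpine2. With Anxa2, Dusp5, Spry1, Spry4 and Etv5 were lower, and these calls were lost with the break in the model.

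**Figure D4:**
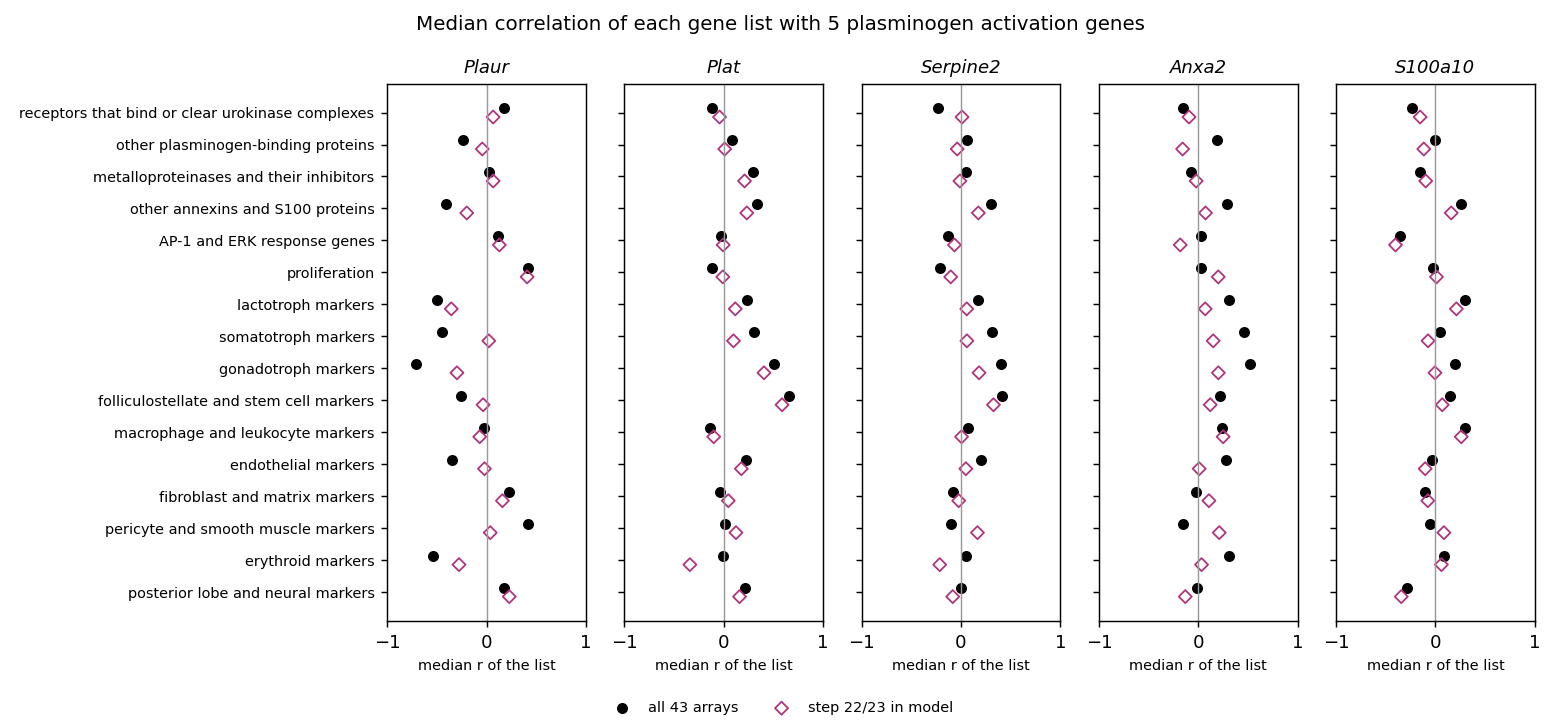
Median Pearson r of each list of 3 or more genes tested (rows) with 5 plasminogen activation genes (panels), over all 43 arrays (filled circles) and with the break between animals 22 and 23 in the model (open diamonds). The folliculostellate list stays near its value with Plat, 0.659 and 0.587, whereas the gonadotroph list with Plaur moves to -0.298 from -0.705. The S100a10 panel includes animal 43, unlike the relations of S100a10 in the text. With animal 43, 39.7% of probe sets were called with S100a10, and 4.47% without it.

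Cell type markers are read against the 16% of all probe sets called higher and the 15.4% called lower with Plaur. Lower with Plaur were 4 of 5 gonadotroph genes, among them Fshb, the beta subunit of follicle-stimulating hormone (r = -0.72), 3 of 4 somatotroph genes, among them growth hormone, Gh1 (r = -0.67), and both thyrotroph genes, Tshb, the thyrotropin beta subunit (r = -0.77), and Trhr (r = -0.48). Of 4 lactotroph genes, Prl (r = -0.43), Pou1f1 and Agtr1b were lower and Drd2 was higher (r = 0.54). With the break in the model, the 2 thyrotroph genes and 1 lactotroph gene were called and none of the gonadotroph and somatotroph genes. With the break and without animals 38 and 43, 0 probe sets were called lower with Plaur, the 2 thyrotroph genes included.

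Of the other lists, 3 of 7 endothelial, 3 of 6 folliculostellate and 2 of 3 erythroid genes were lower with Plaur, and 2 of 3 pericyte genes were higher. Of 14 macrophage and leukocyte genes, which come from cells known to carry the urokinase receptor, 2 were higher (Mrc1, r = 0.61, and Cd14) and 1 was lower (Csf1r), with a median r of -0.02, against 16% of all probe sets called higher and 15.4% called lower. Of 4 fibroblast genes 2 were higher and 1 was lower. Pcsk2, the 1 corticotroph and melanotroph gene tested, and Pf4, the 1 gene tested of neutrophils, mast cells and platelets, were higher, and Nefl, of 3 neural genes, was lower. None of the genes in these lists was called with the break in the model. The neutrophil genes S100a8 and S100a9 did not pass the filter. The summed intensity of all 18 listed macrophage and leukocyte genes, of which 14 passed the filter, ran from 19555.9 to 34008.9. The part of any cell type in the level of Plaur was not tested.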

How the data were processed

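The deposited values were 1 linear intensity per probe set and array, already scaled by the authors to a 2% trimmed mean of 500.2 on each of the 43 arrays. Array medians were 123.1 to 142.0. The summarising software was not given in the sources used here. Intensities were kept as deposited, 16 was added and log2 taken. Precision is limited by how many arrays there are.

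A probe set was named where the platform annotation gave 1 gene symbol (20826 probe sets; 436 had several and 9780 had none), and the probe set with the highest mean represented a gene. Of 31099 probe sets 57 were controls, and 15521 passed the filter. Gene identifiers matched the RefSeq table of GRCr8 for 99.7%. Listed genes with no probe set of a single name have no value.

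Regressions used limma 3.58.1 (lmFit and eBayes) in R 4.3.3, and correlations 2-sided permutation tests with 100000 permutations. On simulated data with 15520 probe sets, the regression on Plaur recovered 100% of slopes of 1 residual SD and 31% of slopes of 0.5 SD, with 6 false calls. The simulated noise was independent between probe sets and held no break and no outlying arrays. It therefore cannot give the number of false calls in the real data. The members and the 22 lists (224 entries) were chosen with earlier results of these data known. Named genes are the members, the members of the lists, and the genes with the highest and lowest r (12 and 8 for Plaur, 5 and 3 for the others). The deposited samples are separate animals of 1 group, so no groups were compared. Alternatives were the pseudocount, the filter, the normalization, covariates (the break or a trend over animal number, the proliferation score, the actin difference) and leaving out animals 38 and 43. The alternatives without both animals, also with the break in the model, and values without animal 38 in the second block were chosen after seeing the data.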

Additional observations from a re-analysis of the deposited data

How the results depend on the processing

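With a trend over animal number in the model the counts of probe sets called were 396 for Plaur, 170 for Plat, 1 for Serpine2 and 537 for Anxa2, and with the break they were 953 for Plaur, 0 for Serpine2 and 297 for Anxa2, against 4878, 885, 118 and 2450. With the break and without animals 38 and 43 they were 1 for Plaur, 0 for Serpine2 (1314 at an unadjusted P under 0.05), 75 for Anxa2 and 738 for S100a10. Averaging the 2 probe sets of a gene left 0 for Plaur and 0 for Anxa2 by limma (973 and 497 at an unadjusted P under 0.05). Without animal 43 alone, 285 were called for Serpine2, 1138 for Anxa2 and 693 for S100a10, against 6158 for S100a10 over all animals. Without animals 38 and 43, 1306 were called for Anxa2 and 850 for S100a10, and without animal 38 alone 29 for Serpine2. For Serpine2 the count was 47 with no filter, 22 with the stricter filter, 44 after quantile normalization, 54 with array medians subtracted and 13 with the proliferation score in the model. The stricter filter left 426 for Plat, no filter left 1579 for Anxa2, and the actin difference as a covariate left 2883 for S100a10. Of the counts under an alternative, 45 stayed within 1.5 times and 27 did not. The causes were not tested, beyond fewer probe sets under the stricter filter.

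Subtracting array medians moved the share of higher calls to 67.1% from 50.9% for Plaur (3196 higher and 1566 lower), to 38.8% from 69.5% for Plat (318 and 501) and to 48.0% from 37.3% for S100a10 (2532 and 2739). The slopes of 5 pairs changed sign, of which Serpine2 on Plaur and Anxa2 on Plaur had been called. Plat on Plaur gave 0.0247 with the break in the model and 0.143 with the break and without both animals. Serpine2 on Plaur gave 0.0142 with the break and without both animals, and Anxa2 on Plaur 0.0077 with the break. S100a10 on Plat gave 0.0509 after quantile normalization, 0.0781 with the actin difference, 0.0257 without animal 43 and 0.0427 without both, and S100a10 on Serpine2 -0.0389 with the trend. Of the other pair values, 110 kept direction and call, 21 lost the call and 3 gained it. No paired analysis was possible because the samples form 1 group.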
